A study of Mus musculus with 4 samples.

Results

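The genes described here encode the alpha and beta tubulin isotypes of 2 mouse colorectal cancer cell lines, CT26 and MC38, with and without knockdown of the mitotic kinase Aurora-A. They were chosen by name as 10 of the 51905 genes listed, 4 alpha isotypes (Tuba1a, Tuba1b, Tuba1c and Tuba4a) and 6 beta isotypes (Tubb2a, Tubb2b, Tubb3, Tubb4b, Tubb5 and Tubb6). CT26 cells, labelled as wild type fibroblasts of the colon and grown in RPMI-1640, carried either a lentiviral hairpin against GFP (shGFP, the control) or a hairpin against mouse Aurka (shmaurka-1). MC38 cells, labelled as wild type epithelial cells of the colon and grown in high glucose DMEM, carried the same hairpins. RNA was taken 48 h after seeding, and each of the 4 conditions was sequenced as 1 strand-specific library of pooled infected cells. A single Aurka hairpin was sequenced, so what belongs to that hairpin and what belongs to the loss of Aurora-A cannot be told apart. Culture medium and mouse strain of origin go with the line and cannot be told apart from it either.

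Microtubules are hollow polymers of alpha and beta tubulin dimers, and they build the mitotic spindle that Aurora-A helps to assemble. Mammals encode each subunit in several genes whose products differ most in the acidic tail at the carboxyl end, the part that sticks out from the polymer and carries polyglutamylation and polyglycylation. Some isotypes are made in most tissues (Tuba1b, Tuba1c, Tubb5, Tubb4b, Tubb6), and others are best known from neurons (Tuba1a, Tubb2b, Tubb3). Cells also adjust tubulin mRNA to the amount of free dimer: the first codons of a tubulin message, read as the nascent chain leaves the ribosome, mark it for decay when free dimer is in excess.

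The alpha genes of the Tuba1 group are nearly alike in sequence. Tuba1a (chr15:98949847-98953501), Tuba1b (chr15:98931429-98934390) and Tuba1c (chr15:99029891-99038105, RefSeq positions on GRCm38.p6) lie together on chromosome 15, each with 4 exons. Their coding sequences, taken from GENCODE vM39 transcripts, were 97.1 to 98.3% identical to each other and 84.7 to 85.3% identical to that of Tuba4a (chr1:75214972-75221261). Of all 100-base windows of the transcript, 64.9% in Tuba1a, 46.1% in Tuba1c and 35.1% in Tuba1b also occurred in transcripts of another gene, against 0 in Tuba4a, Tubb3, Tubb5 and Tubb6. The last 54 coding bases, which encode the tail, are shown for 5 isotypes because they separate them, with the stop codon in capitals.
Tuba1c: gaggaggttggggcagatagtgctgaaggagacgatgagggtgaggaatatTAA
Tuba4a: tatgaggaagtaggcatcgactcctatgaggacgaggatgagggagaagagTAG
Tubb5: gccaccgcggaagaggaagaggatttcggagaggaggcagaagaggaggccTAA
Tubb4b: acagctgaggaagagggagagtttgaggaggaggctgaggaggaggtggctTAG
Tubb3: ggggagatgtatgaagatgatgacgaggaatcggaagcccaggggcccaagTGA
Tuba1c and Tuba4a differed at 29 of these 54 bases. Tubb4b and Tubb5 differed at 21 and Tubb3 and Tubb5 at 31. How fragments from shared sequence were assigned is not given in the sources used here, so levels of single Tuba1 genes are uncertain. Among the beta genes the closest pair was Tubb2a and Tubb2b, at 96.5% coding identity, and every other pair of beta genes was between 80.2 and 86.0%. In Tubb4b, 29.1% of windows were shared, nearly all with the pseudogene Tubb4b-ps1, which held 47 to 70 fragments a library.

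The start of the message, read in autoregulation as the nascent chain, was the same in the first 12 coding bases of Tuba1a, Tuba1b and Tuba1c. In Tuba4a 1 base differed (CGC for CGT), and both codons encode arginine. An alpha and a beta start are shown with the first 4 codons in capitals.
Tuba1b: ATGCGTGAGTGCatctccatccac
Tubb5: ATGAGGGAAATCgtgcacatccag

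The libraries held 22207769 to 23752267 fragments, and the deepest had 1.07 times the fragments of the shallowest. The targeted gene, Aurka, was at 5724 (shGFP) and 1093 fragments (shmaurka-1) in CT26 and at 2300 and 413 in MC38, which gives log2 values of -2.27 and -2.44. The cell type labels were checked against markers. Of 10 epithelial markers, Epcam had 0 to 1 fragments and Cdh1 1 to 6 in a library, in both lines. The keratin genes Krt18 (1516 and 1485 fragments in CT26, 12 and 14 in MC38) and Krt20 (434 and 205, 2 and 0) were present in CT26, Vil1 (0 and 0, 38 and 29) was low in MC38 and at 0 in CT26, and the summed FPKM of the 10 was 42.7 to 43.0 there and 0.987 to 1.29 in MC38. Vim, the filament gene of mesenchymal cells, held 12373 to 15826 fragments in every library, so most of these markers do not bear out the epithelial label of MC38. The 10 fibroblast markers, Vim among them, summed to 921 and 930 FPKM in CT26 and 572 and 578 in MC38. With keratin genes present in CT26, these markers leave its fibroblast label unsettled. Leukocyte markers summed to 0.173 to 0.409 FPKM.

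Tubb3, the beta isotype best known from neurons, has a measured level in MC38 only. It was listed at 1025 fragments in MC38 shGFP and 708 in MC38 shmaurka-1, and at 0 in both CT26 libraries. In the files it belongs to a locus on chromosome 8 that also holds 209 other genes, and all 210 were listed at 0 in both CT26 libraries, while 90 and 91 of them had fragments in the MC38 libraries. The genes at 0 in CT26 include Rpl13, a ribosomal protein gene with 29415 fragments in MC38 shGFP, and Cox4i1, a subunit of the respiratory chain with 8238. The cause was not tested. The entries of Tubb3 in CT26 are treated here as missing, with no fold change and no comparison between the lines. By the criterion used (at least 5 genes with at least 100 fragments in another library), it was the only locus listed at 0 as a whole, and it held none of the other genes described.

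By FPKM, the alpha tubulins in CT26 shGFP came in nearly equal parts from the Tuba1 genes, and those in MC38 mainly from Tuba1b. FPKM divides fragments by transcript length, which allows levels of different genes in 1 library to be compared. The deposited FPKM also carry the scaling between libraries of the deposited counts, and their total over all genes was 562668 and 576940 in CT26 and 438399 and 452925 in MC38, so FPKM comparisons between the lines rest on that scaling. Tuba1b, the ubiquitous alpha isotype, stood at 153 FPKM in CT26 shGFP, 173 in CT26 shmaurka-1, 312 in MC38 shGFP and 312 in MC38 shmaurka-1. Tuba1a, the main alpha isotype of developing neurons, stood at 145, 142, 56.2 and 45.6 FPKM in the same order. Tuba1c stood at 152, 185, 66.2 and 61.2 FPKM. Both MC38 libraries were thus above both CT26 libraries for Tuba1b and below both for Tuba1a and Tuba1c.

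Tuba4a, the isotype without an encoded tyrosine at the end of its tail, was the lowest alpha isotype in every library, at 6.05 and 6.0 FPKM in CT26 and 29.7 and 37.1 in MC38. As shares of the summed alpha FPKM in the shGFP libraries, Tuba1b made up 33.6% in CT26 and 67.2% in MC38, Tuba1c 33.4 and 14.3%, Tuba1a 31.7 and 12.1%, and Tuba4a 1.33 and 6.40%. Both the order of the Tuba1 genes within CT26 and how equal they were depended on the length used. By the length of 1 reference transcript each, Tuba1c had 38.3%, Tuba1a 37.3% and Tuba1b 23.4% in CT26 shGFP. On that measure Tuba1b still led in MC38 shGFP at 56.8%. Summed over the near-identical Tuba1 genes, the share was 98.7% in CT26 shGFP and 93.6% in MC38 shGFP. Total alpha FPKM was 456 and 507 in CT26 and 464 and 456 in MC38. As a share of all fragments, alpha was lower in CT26, at 0.0715 and 0.0767%, than in MC38, at 0.0898 and 0.0855%.

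**Figure D1:**
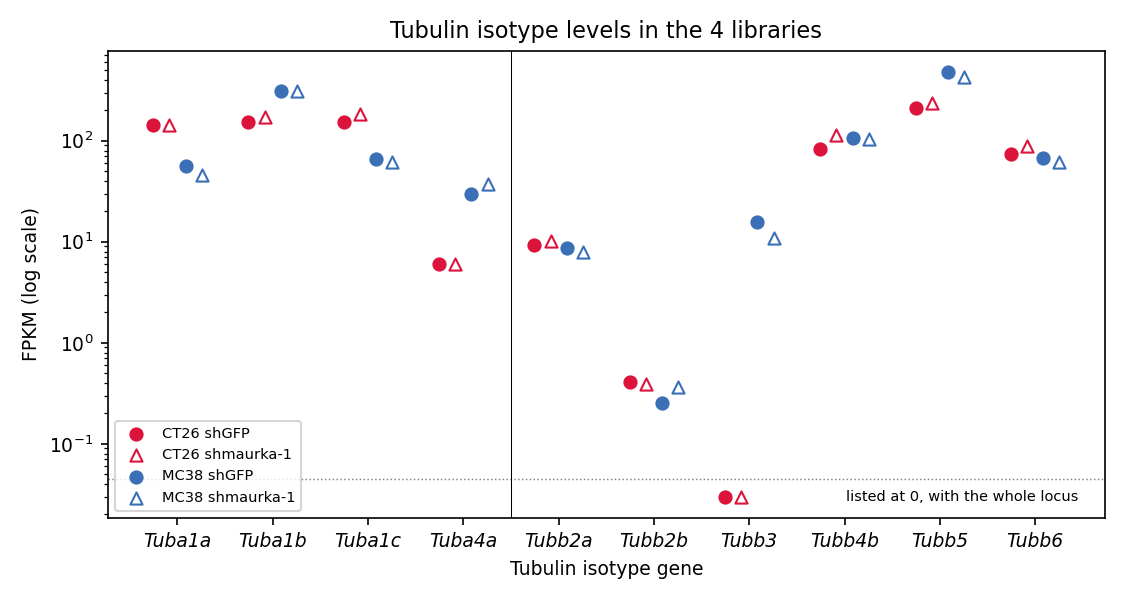
FPKM on a log axis for the 10 tubulin genes in the 4 libraries, 1 point for each library (filled circles, shGFP; open triangles, shmaurka-1; red, CT26; blue, MC38). Tuba1a and Tuba1c are higher in CT26, Tuba1b, Tuba4a and Tubb5 are higher in MC38, and the CT26 entries of Tubb3, listed at 0 with their whole locus, are drawn under the dotted line.

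Tubb5, the main beta isotype of dividing cells, led the beta tubulins in every library. It stood at 208 FPKM in CT26 shGFP, 238 in CT26 shmaurka-1, 479 in MC38 shGFP and 425 in MC38 shmaurka-1, both MC38 libraries above both of CT26. Tubb4b, a widely expressed isotype that also builds the axonemes of cilia, stood at 82.3, 114, 106 and 104 FPKM in the same order, with CT26 shGFP apart from the other libraries. Tubb6 stood at 73.4, 87.7, 68.1 and 61.7 FPKM, both CT26 libraries above both of MC38.

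The remaining beta isotypes were low. Tubb2a was between 7.96 and 10.1 FPKM in every library, and Tubb3 was at 15.6 and 11.0 FPKM in MC38. Tubb2b, at 15 to 21 fragments a library, was between 0.254 and 0.409 FPKM. Of the summed beta FPKM, Tubb5 made up 55.8 and 52.9% in the CT26 libraries and 70.7 and 69.6% in the MC38 libraries. Tubb4b made up 22.0 and 25.2% in CT26 against 15.7 and 17.1% in MC38, and Tubb6 19.6 and 19.5% against 10.0 and 10.1%. Tubb3 made up 2.30 and 1.79% of the MC38 sum, and the sum of CT26 has no value for it. Without Tubb3 the shares of Tubb5 in MC38 were 72.3 and 70.9%.

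Summed beta FPKM was 374 and 450 in CT26 and 678 and 611 in MC38. The ratio of beta to alpha FPKM was 0.819 and 0.889 in CT26 and 1.46 and 1.34 in MC38, or 1.43 and 1.32 in MC38 without Tubb3. Alpha and beta together took 0.149 and 0.165% of all fragments in CT26 and 0.270 and 0.245% in MC38. FPKM compares amounts of message only, and the protein subunits were not measured in these files.

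**Figure D2:**
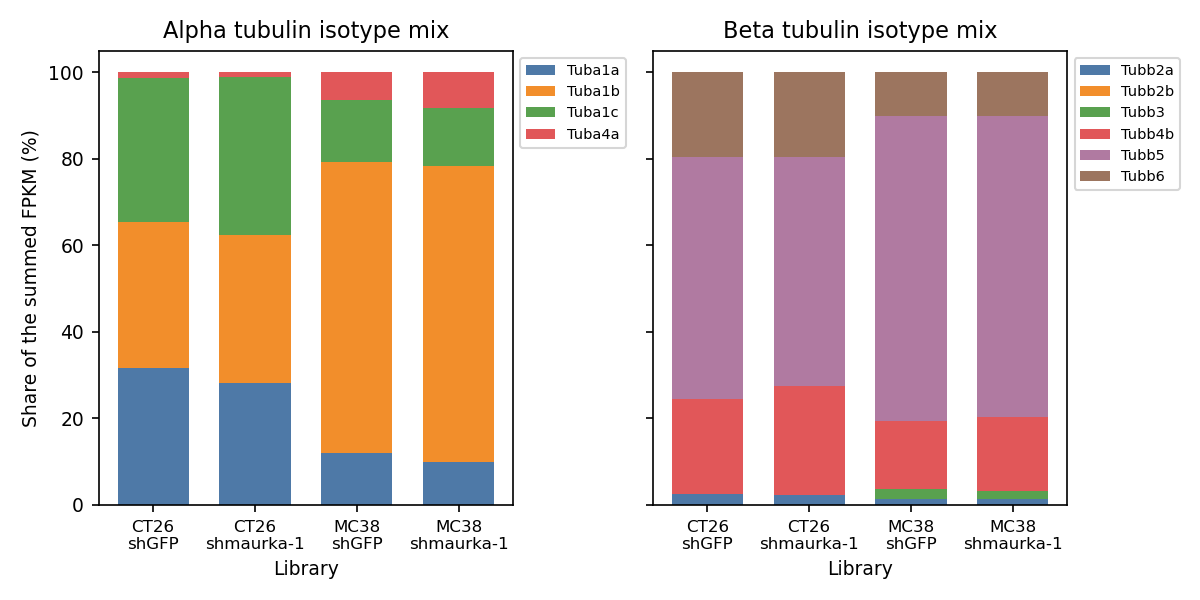
Share of the summed alpha (left) and beta (right) FPKM, in percent, held by each isotype in the 4 libraries, 1 bar for each library. Tuba1b widens from 33.6% in CT26 shGFP to 67.2% in MC38 shGFP and Tubb5 from 55.8 to 70.7%, and the CT26 bars hold no Tubb3 because it has no value there.

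To compare the lines, all genes that averaged 10 or more counts in both lines were fitted with the quasi-likelihood method of edgeR. The hairpin was a block, which gives 2 libraries for each line. Nothing says that these come from separate experiments, so p-values measure only a spread between these libraries, pooled over all genes. Their size depends on the fit: for Tuba4a, edgeR gave an adjusted p of 4.3e-59 with the block and 4.8e-07 without it. Tubb3 did not pass the filter. Of the 9 isotypes tested, 6 (66.7%) passed an adjusted p of 0.05 (Benjamini-Hochberg), beside 73.3% of all genes tested. Higher in CT26 were 3, beside 36.6% of all genes, and higher in MC38 were 3, beside 36.7%. A bulk library cannot tell fewer cells with a message from less message in each cell.

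Tuba1a was 2.74-fold higher in CT26 (log2 1.46, edgeR adjusted p = 3.0e-44) and Tuba1c 2.58-fold (log2 1.37, edgeR adjusted p = 1.6e-42). Tubb6 was higher in CT26 by 1.18-fold (log2 0.24, edgeR adjusted p = 0.0200), but with libraries scaled by their total counts, which moves the median of all genes to -0.30, its log2 value was -0.05 (edgeR adjusted p = 0.667). In MC38, Tuba4a was 4.93-fold higher (log2 -2.30 for CT26 over MC38, edgeR adjusted p = 4.3e-59), Tubb5 2.10-fold (log2 -1.07, edgeR adjusted p = 2.5e-32) and Tuba1b 1.96-fold (log2 -0.97, edgeR adjusted p = 1.0e-24). Past 2-fold and called were 4 of 9 isotypes, beside 33.3% of all genes tested. Tubb2a (log2 0.17, edgeR adjusted p = 0.318), Tubb2b (log2 0.33, edgeR adjusted p = 0.509) and Tubb4b (log2 -0.16, edgeR adjusted p = 0.130) were not called, but with total-count scaling Tubb4b was called higher in MC38 (log2 -0.45, edgeR adjusted p = 9.3e-06).

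With each hairpin taken alone the called differences kept their side, though that of Tubb6 was small with shGFP. Its log2 ratio of CT26 over MC38 was 0.09 with shGFP (95% counting interval 0.02 to 0.15) and 0.40 with shmaurka-1 (0.33 to 0.46). For Tuba1a the log2 ratio of CT26 over MC38 was 1.32 with shGFP (95% counting interval 1.25 to 1.40) and 1.59 with shmaurka-1 (1.51 to 1.67). For Tubb5 it was -1.23 (-1.26 to -1.20) and -0.91 (-0.94 to -0.88), and for Tuba4a -2.32 (-2.53 to -2.13) and -2.28 (-2.49 to -2.08). Tubb4b was lower in CT26 with shGFP, at -0.39 (-0.45 to -0.32), and with shmaurka-1 its interval, from -0.00 to 0.12, held 0. All intervals here are exact and cover the counting of fragments alone, since reads were not marked by molecule and no condition was repeated.

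**Figure D3:**
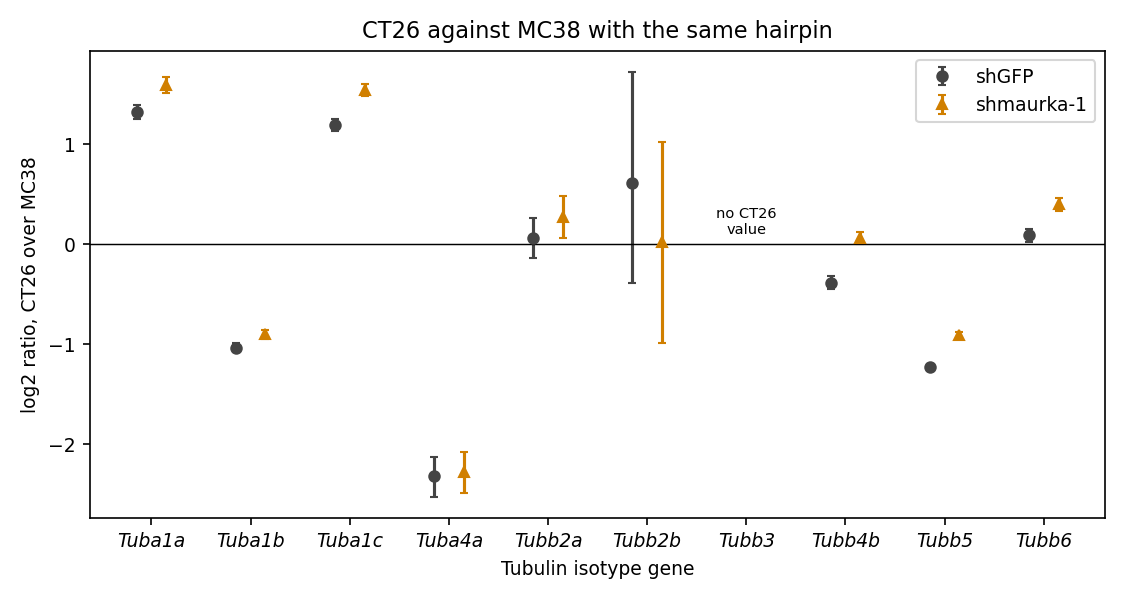
Log2 ratio of CT26 over MC38 for each tubulin gene, from TMM-scaled counts with 1 count added, for the shGFP pair (circles) and the shmaurka-1 pair (triangles). Bars are exact 95% counting intervals; Tuba1a and Tuba1c lie above 1 with both hairpins, Tuba4a lies below -2, and Tubb3 has no point because CT26 has no value.

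With Aurora-A knockdown, no isotype that had a value lay outside the fold limits used in the study, 1.5 and 0.6, although the intervals of Tubb2b reached past them and Tubb3 has no value in CT26. In CT26, 0 of the 9 isotypes with a value in both lines were above 1.5-fold, beside 3.2% of all genes, and 0 below 0.6-fold, beside 2.57%. In MC38 the counts were 0 beside 2.47% and 0 beside 1.03%. Smaller shifts were present, and 3 of the 9 isotypes had intervals on opposite sides of 0 in the 2 lines. Each rests on 1 library a condition, so it has no replicate check and no p-value.

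In CT26 the beta isotype Tubb4b had the largest shift, from 3046 fragments with shGFP to 3732 with shmaurka-1, or 1.33-fold (log2 0.41, interval 0.34 to 0.48). The locus of Tubb4b in the files also holds Fam166a, and whether counting used strand is not stated. Tuba1c went from 6272 to 6798 fragments (log2 0.24, 0.19 to 0.29), Tubb6 from 3864 to 4013 (log2 0.18, 0.11 to 0.24), Tubb5 from 11109 to 11417 (log2 0.16, 0.12 to 0.20) and Tuba1b from 5635 to 5709 (log2 0.14, 0.09 to 0.19). The shGFP library was the deeper one, so scaled levels differ by more than these fragments do. The interval lay above 0 for these 5 of 9 isotypes (55.6%), beside 22.1% of all genes, and below 0 for 0, beside 21.1%. Tuba1a went from 4835 to 4310 fragments, which is -0.05 after scaling (-0.10 to 0.01). Tuba4a (241 and 227 fragments, log2 0.03), Tubb2a (377 and 366, log2 0.08) and Tubb2b (20 and 17, log2 -0.11) had intervals that held 0.

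In MC38 the intervals that left out 0 lay below it. Tubb3 went from 1025 fragments with shGFP to 708 with shmaurka-1, 0.705-fold (log2 -0.50, interval -0.64 to -0.36), the lowest value of any isotype. Tuba1a went from 2280 to 1799 (log2 -0.31, -0.40 to -0.22). Tubb5 went from 30790 to 26943 (log2 -0.16, -0.19 to -0.14), Tubb6 from 4291 to 3828 (log2 -0.14, -0.20 to -0.07) and Tuba1c from 3235 to 2934 (log2 -0.11, -0.18 to -0.04). Among the 9 isotypes with a value in both lines, the interval lay below 0 for 4 (44.4%), beside 22.3% of all genes, and above 0 for 0, beside 22.8%.

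In MC38 the intervals of the other isotypes held 0. Tuba1b had 13636 and 13387 fragments (log2 0.00, -0.03 to 0.04) and Tubb4b 4697 and 4500 (log2 -0.03, -0.09 to 0.03). Tubb2a, at 426 and 381 fragments, had a log2 value of -0.13 (-0.33 to 0.07), and Tubb2b, at 15 and 21 fragments, had one of 0.48 with an interval of -0.51 to 1.58. Tuba4a had 1423 and 1387 fragments (log2 -0.01, -0.12 to 0.10), although its FPKM was 0.32 higher on the log2 scale in shmaurka-1. Its locus in the files also holds the neighbouring gene Stk16, with the same doubt about strand.

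**Figure D4:**
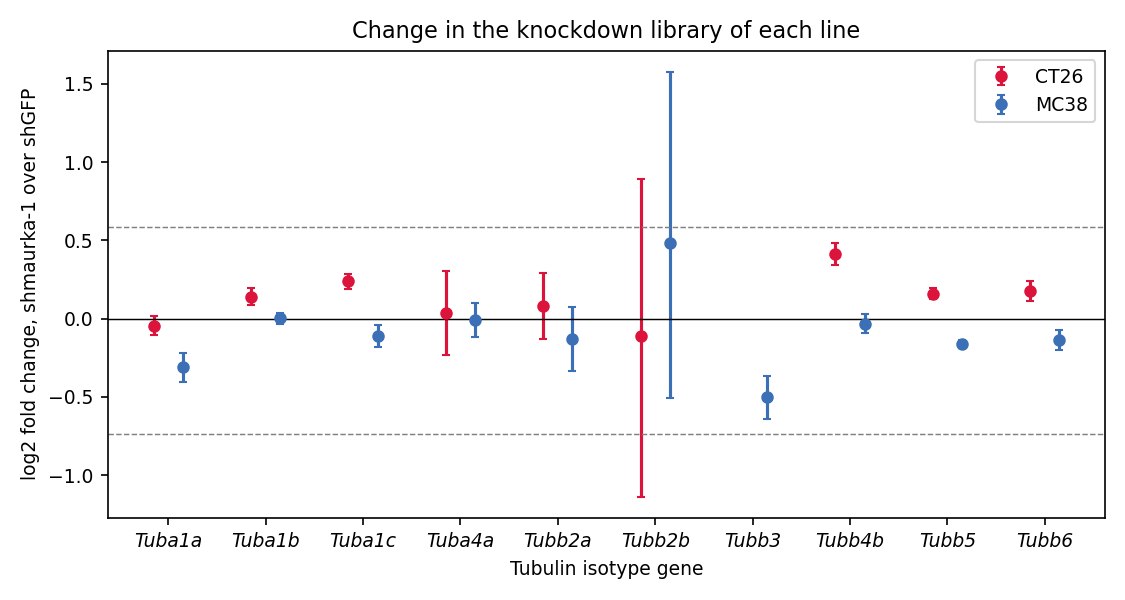
Log2 fold change of shmaurka-1 over shGFP for each tubulin gene in CT26 (red) and MC38 (blue), from TMM-scaled counts with 1 count added. Bars are exact 95% counting intervals from 1 library a condition, and dashed lines mark 1.5-fold and 0.6-fold; no point lies outside them, and Tubb4b in CT26 (0.41) and Tubb3 in MC38 (-0.50) lie farthest from 0 among genes with over 100 fragments.

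Over the 9 isotypes, knockdown against shGFP gave a median log2 value of 0.14 for CT26 and -0.11 for MC38, beside medians over all genes of -0.01 and -0.00. In CT26, 7 of 9 isotypes had a value above 0, beside 49.2% of all genes, and in MC38 2 of 9, beside 49.9%. The difference between the lines in the knockdown change, CT26 minus MC38, was 0.45 for Tubb4b (interval from the 4 counts, 0.36 to 0.54), 0.35 for Tuba1c (0.26 to 0.44), 0.32 for Tubb5 (0.28 to 0.37), 0.31 for Tubb6 (0.22 to 0.40), 0.27 for Tuba1a (0.16 to 0.37) and 0.14 for Tuba1b (0.07 to 0.20). Intervals of Tuba4a, Tubb2a and Tubb2b held 0. Tuba1c, Tubb5 and Tubb6 had intervals above 0 in CT26 and below 0 in MC38, 3 of 9 isotypes beside 3.84% of all genes. No test against the spread between repeated libraries can be made.

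A change shared by the lines was sought with the quasi-likelihood method of edgeR, taking the line as a block. It called 0 of 9 isotypes higher, beside 1.67% of all genes tested, and 0 lower, beside 1.12% (in all, 333 of 11928 genes or 2.79%), and 0 isotypes had an unadjusted p under 0.05. DESeq2, limma-voom and limma-trend on log2 FPKM also called 0 isotypes. Over all 11928 genes they called 29, 267 and 1, so their 0 of 9 adds little. Tubb4b was nearest, at log2 0.19 (edgeR adjusted p = 0.42), followed by Tuba1a at log2 -0.18 (edgeR adjusted p = 0.51). The other 7 isotypes lay between -0.03 and 0.20 on the log2 scale, with edgeR adjusted p values from 0.85 to 0.997.

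Summed alpha FPKM in shmaurka-1 was 1.11-fold that in shGFP in CT26 (log2 0.15) and 0.982-fold in MC38 (log2 -0.03). Summed beta FPKM was 1.21-fold in CT26 (log2 0.27) and 0.901-fold in MC38 (log2 -0.15). TMM-scaled counts, which adjust for the make-up of each library, gave a change of 12.4% for the sum of alpha and beta in CT26 (log2 0.17, interval 0.15 to 0.19) and one of -7.73% in MC38 (log2 -0.12, -0.13 to -0.10). Within the families, the largest shifts of the mix in CT26 were those of Tuba1a, by -3.63 percentage points of the alpha sum, of Tubb4b, by 3.24 points of the beta sum, and of Tuba1c, by 3.14 points of the alpha sum. Between the shGFP libraries of the lines, CT26 minus MC38, the same shares differed by 19.6 points for Tuba1a, 6.33 for Tubb4b and 19.1 for Tuba1c.

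Genes that act in mitosis were also above shGFP in CT26. Of 15 such genes, among them Cdc20, Bub1b, Mki67 and Top2a, 15 had a higher level in CT26 shmaurka-1, beside 49.2% of all genes, and 12 were past 1.5-fold, beside 3.2%, with a median log2 fold change of 0.70. In MC38, 5 of the 15 were above shGFP, beside 49.9% of all genes, and the median was -0.05. The edgeR test common to both lines called 6 of the 15, all higher, beside 1.67% of all genes. Of these, Cdc20 and Bub1b also had MC38 intervals above 0 (log2 0.20 and 0.11), those of Plk1 and Ube2c held 0, and those of Top2a (log2 -0.09) and Mki67 (-0.06) lay below it, so the calls rest mainly on CT26. Without the block edgeR called 0 of all genes, so the 6 calls were lost. The part of the mitosis genes in the tubulin shifts was not tested.

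Promoters are shown for 3 isotypes: Tubb4b, which had the largest shift in CT26, and Tuba1b and Tuba1c, neighbours on chromosome 15 whose levels differ between the lines in opposite directions. The RefSeq promoter table (GRCm38.p6) was searched for 7 of the members over the 250 bases before the start site. Tubb2b and Tubb6 were not searched, and Tuba4a is left out because its window in the table lies inside the gene as placed above. Motifs searched on both strands and shown in capitals were the CCAAT box (CCAAT or ATTGG), bound by NF-Y, and the core of the cell cycle gene homology region, CHR (TTTGAA or TTCAAA), known from promoters of genes that peak in G2 and mitosis. The sequences read 5′ to 3′ on the strand of the gene. A GC box (GGGCGG or CCGCCC) and a TATA box (TATAAA or TTTATA) were searched too and are not in capitals.
Tubb4b, chr2:25224703-25224952, minus strand: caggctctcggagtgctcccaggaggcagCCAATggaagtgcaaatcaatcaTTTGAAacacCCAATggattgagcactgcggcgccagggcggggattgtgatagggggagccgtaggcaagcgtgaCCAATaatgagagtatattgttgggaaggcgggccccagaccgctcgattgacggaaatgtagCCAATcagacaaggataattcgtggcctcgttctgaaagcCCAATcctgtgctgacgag
Tuba1b, chr15:98934391-98934640, minus strand: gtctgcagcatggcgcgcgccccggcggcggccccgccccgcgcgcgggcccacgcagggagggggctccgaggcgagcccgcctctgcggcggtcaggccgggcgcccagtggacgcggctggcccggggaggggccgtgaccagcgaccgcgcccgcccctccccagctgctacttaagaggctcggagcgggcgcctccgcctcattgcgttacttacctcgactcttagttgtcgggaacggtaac
Tuba1c, chr15:99029641-99029890, plus strand: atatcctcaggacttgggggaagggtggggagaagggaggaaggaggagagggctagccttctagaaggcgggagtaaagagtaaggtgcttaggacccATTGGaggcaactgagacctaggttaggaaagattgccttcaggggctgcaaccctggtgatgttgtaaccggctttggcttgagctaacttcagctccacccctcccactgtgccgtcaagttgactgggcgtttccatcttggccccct
The Tubb4b window held 5 CCAAT boxes and 1 CHR core. At least 5 CCAAT boxes stood in 0.213% of 32851 promoter windows of the same length, at least 1 in 33.8%, and a CHR core in 16.0%. Tubb5 had 2 CCAAT boxes, Tuba1a, Tuba1c and Tubb3 had 1 each, and Tuba1b and Tubb2a had no CCAAT match. GC boxes, present in 32.7% of all windows, numbered 2 each in Tuba1b, Tubb2a and Tubb3 and 1 each in Tuba1a and Tubb4b, and a TATA box, present in 12.4%, was found in Tubb2a. Among the 7 windows, that of Tubb4b alone held a CHR core. A match in letters is a description of the window, and binding was not measured.

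Of the other genes of the tubulin system, few were called with knockdown and most were called between the lines. Over 6 lists, 70 of 84 genes were tested. In the test common to both lines, edgeR called 2 lower (2.86%, beside 1.12% of all genes) and 0 higher (beside 1.67%). The same lists had 60 genes called between the lines (85.7%, beside 73.3%), 26 higher in CT26 and 34 higher in MC38. With libraries scaled by their total counts these were 18 and 40, where 3129 and 5745 of all 11928 genes were called. That background goes with the total-count values of each list below.

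The other alpha and beta tubulin genes were nearly silent: Tuba3a, Tuba3b, Tuba8, Tubal3 and Tubb1 had 0 to 7 fragments a library, and Tubb4a had 16, 11, 15 and 13. Gamma tubulin, its ring complex and the delta and epsilon tubulins nucleate microtubules and build centrioles. Of their 11 genes tested, 0 were called with knockdown, beside 2.79% of all genes. In CT26, 8 of 11 were above shGFP, beside 49.2% of all genes. In MC38 it was 0 of 11, beside 49.9%, and Mzt2 was level with shGFP there (log2 -0.00). Between the lines 3 were higher in CT26, beside 36.6% of all genes, led by Tubgcp5 (log2 0.59), and 6 in MC38, beside 36.7%, led by Tubd1 (log2 -1.65), Tube1 (-1.5) and Tubg1 (-1.32). With total-count scaling 1 was called higher in CT26 and 8 in MC38.

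Folding factors, which make the assembly-ready dimer, had 0 of 21 called with knockdown, beside 2.79% of all genes. Between the lines 12 were higher in CT26, beside 36.6% of all genes, and 7 in MC38, beside 36.7%. The total-count scaling gave 8 and 8. Genes of the CCT chaperonin, which folds new tubulin chains, were higher in CT26: 8 of its 8 genes passed, beside 36.6% of all genes, led by Cct6a (log2 1.13, edgeR adjusted p = 2.2e-36) and Cct2 (log2 1.10). With total-count scaling, 4 of the 8 passed and Tcp1 turned to -0.008. The prefoldins, which hand chains to CCT, were divided: Pfdn1 (log2 1.56) and Pfdn5 (log2 1.10) were higher in CT26, and Pfdn6 (log2 -0.44) and Pfdn2 (log2 -0.34) in MC38. The cofactors, which act after CCT, were divided too. Tbcd (log2 -1.67), Tbcb (log2 -1.10), Tbcc (log2 -0.95) and Tbca (log2 -0.88) were higher in MC38, and Tbce (log2 0.75) in CT26. The cofactor E-like gene Tbcel (log2 0.82) was also higher in CT26. Pfdn6, Pfdn2, Tbcel and Tbce were picked out after their values were seen.

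Genes of tubulin mRNA autoregulation had 0 of 4 called with knockdown, beside 2.79% of all genes. Ttc5, which recognises the start of the nascent tubulin chain, was higher in MC38 (146 to 164 fragments a library in CT26 and 360 to 429 in MC38, log2 -1.06, edgeR adjusted p = 4.7e-09). Scaper, the adaptor that links it to the CCR4-NOT deadenylase, was higher there too (log2 -1.84), and Cnot11 was higher in CT26 (log2 0.58).

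Of 16 modification enzymes tested, 1 was called with knockdown, beside 2.79% of all genes. Hdac6, the tubulin deacetylase, fell in the test shared by the lines (761 fragments with shGFP and 504 with shmaurka-1 in CT26, 2075 and 1605 in MC38, log2 -0.40, edgeR adjusted p = 0.034). It was not called by DESeq2, with a filter of 50 counts, or without the block. Between the lines 4 were higher in CT26, beside 36.6% of all genes, led by Atat1, the alpha tubulin acetyltransferase (log2 2.41), Ttll11 (1.92) and Ttl, the tubulin tyrosine ligase (1.26), and 10 were higher in MC38, beside 36.7%, led by the glutamylase Ttll7 (-3.27), the deglutamylase Agbl5 (-2.78) and Ttll1 (-2.25). Atat1 rests on 64 and 45 fragments in CT26 and 13 and 11 in MC38.

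Of 17 microtubule-associated and severing proteins tested, 1 was called with knockdown, beside 2.79% of all genes. It was Stmn1, whose product stathmin binds free dimers (log2 -0.44, edgeR adjusted p = 0.0024). It had 2087 and 1035 fragments in CT26 and 4264 and 4110 in MC38, so the value comes almost wholly from CT26 (log2 -0.89 there and -0.02 in MC38). Between the lines 6 were higher in CT26, beside 36.6% of all genes, led by Map7d1 (log2 1.57) and Map6 (1.17), and 9 in MC38, beside 36.7%, among them Stmn1 (-1.22) and Mapre2 (-1.19). With total-count scaling the counts were 4 and 10. The knockdown call of Stmn1 was likewise not made by DESeq2, with a filter of 50 counts, or without the block.

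Map2 and Fign, picked out after their values were seen, did not pass the filter because CT26 was near 0. Map2, a microtubule-associated protein of neuronal dendrites, had 0 and 1 fragments in CT26 and 1119 and 793 in MC38, at least 316-fold higher in MC38 with shGFP when CT26 is set to 3 fragments. Like Tubb3, it was lower with shmaurka-1 in MC38 (log2 -0.47, interval -0.60 to -0.33). Fign, a severing enzyme, had 4 and 0 fragments in CT26 and 567 and 539 in MC38. Of the neuronal markers, Rbfox3 and Snap25 had 0 to 3 fragments in every library, and the neurofilament genes Nefm (4515 and 5192 fragments in CT26, 2 and 3 in MC38) and Nefl (808 and 616, 1 and 1) were high in CT26 alone. Gap43, a protein of growing axons, had 240 fragments (shGFP) and 129 (shmaurka-1) in CT26 and 81 and 34 in MC38, and edgeR called it lower with knockdown (log2 -0.93, edgeR adjusted p = 0.0077). Without the block edgeR called 0 of all genes, so the call of Gap43 was lost. Syt1, the other neuronal marker tested, had 81 and 97 fragments in CT26 and 34 and 30 in MC38 (edgeR adjusted p = 0.897).

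**Figure D5:**
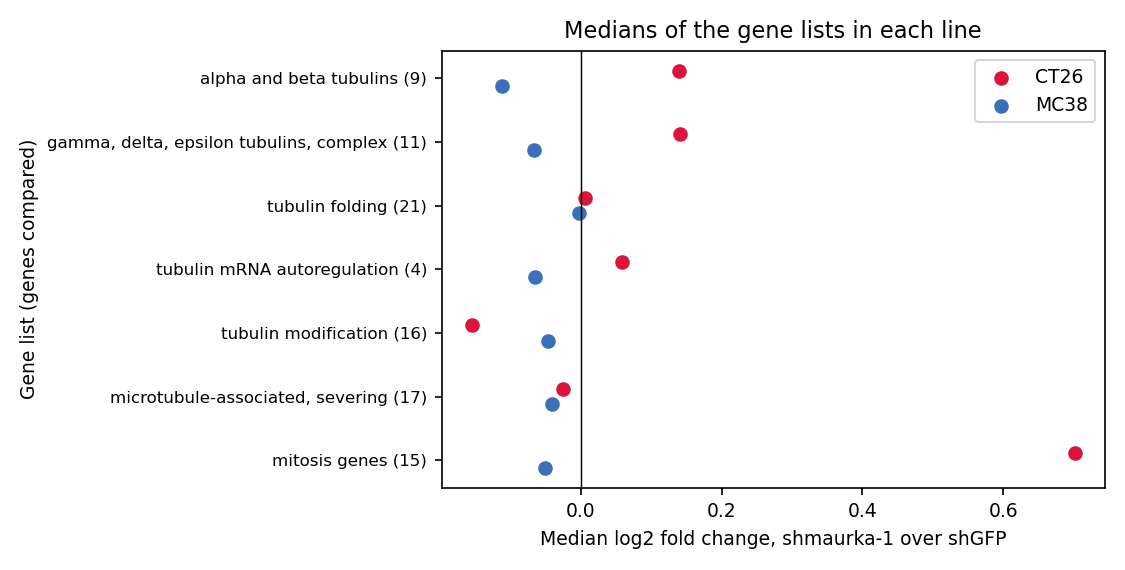
Median log2 fold change of shmaurka-1 over shGFP in CT26 (red) and MC38 (blue) for the tubulin isotypes and for each list with at least 4 genes compared; the number of genes is in brackets. The isotypes stand at 0.14 in CT26 and -0.11 in MC38, and the mitosis genes at 0.70 and -0.05.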

How the data were processed

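RNA-seq of 4 libraries, 1 for each line and hairpin, was analysed. Per gene and library, the authors deposited 2 values, an estimated count and FPKM. The submitters' processing notes name Trimmomatic 0.36, HISAT2, Cufflinks 2.2.1, Cuffdiff and GRCm39, but the gene positions in the files are those of GRCm38 for 10 of 10 tubulin genes. Deposited counts were scaled between libraries. Division by the most frequent low value gave whole fragments within 0.05 for 97.0 to 97.6% of nonzero values. Counts were rounded for edgeR 4.0.16 (TMM, quasi-likelihood, Benjamini-Hochberg) on the 11928 genes that averaged 10 or more counts in both lines; DESeq2 1.42.0 and limma 3.58.1 were alternatives, and scripts were tested on simulated data. With 1 residual degree of freedom, the prior degrees of freedom of edgeR were infinite, so its spread comes from all genes. Fold changes within a line are TMM-scaled with 1 count added and carry exact 95% binomial intervals of the fragments (the difference between lines, a normal interval). Sequences are from RefSeq (GRCm38.p6) and GENCODE vM39. All 10 isotypes are named; of other lists, at most 4 called genes of largest fold in each direction, and further genes were picked after their values were seen. Members and lists were chosen with earlier results of these data known. Some items are not reported here.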

Additional observations from a re-analysis of the deposited data

Results flagged for a closer look

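The knockdown change of 3 of 9 isotypes, beside 3.84% of all genes, had opposite sides in the 2 lines, above shGFP in CT26 and below it in MC38, each with a counting interval that left out 0. The difference on the log2 scale, CT26 minus MC38, was 0.35 for Tuba1c, 0.32 for Tubb5 and 0.31 for Tubb6. With 1 library a condition, the difference was not tested.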

How the results depend on the processing

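The count of isotypes called with knockdown in both lines was 0 under every alternative run: DESeq2 size factors, total-count scaling, 3 other filters on low counts, the DESeq2 Wald test, limma-voom, limma-trend on log2(FPKM + 1), no replicate block, and recovered fragments in place of deposited counts (chosen after seeing the data). Over all genes, the main fit called 333, DESeq2 29, the filter of 50 counts 101, limma-trend 1 and the fit with no replicate block 0 (13 at an unadjusted p under 0.05), while 0 list genes were called lower under the filter of 50 counts, DESeq2 or no replicate block, against 2. Each line gives 1 pair, so leaving out a line leaves the values within the other line, with no test. In the knockdown test, values near 0 changed sign: Tuba4a to -0.013 with total-count scaling and -0.00057 with no replicate block, Tubb2a to 0.0029 and Tubb5 to 0.011 with limma-trend, Tubb5 to 0.0019 with no filter and Tubb6 to -0.0023 with total-count scaling. Between the lines, total-count scaling turned Tubb2a to -0.12 and Tubb6 to -0.048 and called Tubb4b (-0.45, edgeR adjusted p = 9.3e-06), and it moved the split of all called genes from 4364 higher and 4382 lower in CT26 to 3129 and 5745. Tubb6 also lost its call with the filter of 50 counts, DESeq2 and no replicate block, and other filters add a lower call that is Tubb3, whose CT26 entries are missing. Without Tubb5, the summed beta change was 0.36 in CT26 and -0.10 in MC38, and without Tuba1b the summed alpha change in MC38 was -0.079. The share of Tuba1b was 33.6 points higher in MC38 shGFP than in CT26 shGFP. The summed share of the near-identical Tuba1 genes, another quantity, differed by -5.07 points, MC38 minus CT26. The share of Tubb5, 14.9 points higher in MC38 shGFP, becomes 16.6 points higher without Tubb3 (chosen after seeing the data). Apart from these construction effects the cause was not tested. Isotypes under 100 fragments (Tubb2b) are limited by depth.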
